A study of Mus musculus with 3 samples.

Results

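Globin-rich barcodes of the ascending aorta were taken as all barcodes with at least 100 UMIs (unique molecular identifiers, which count single captured transcripts) summed over the 4 adult globin genes *Hba-a1*, *Hba-a2*, *Hbb-bs* and *Hbb-bt*. No limit on detected genes or on mitochondrial UMIs was set, and 181 of 33178 barcodes met the minimum. The barcodes were selected on globin UMIs, so every globin level below describes that selection and has no test. The transcripts other than globin were not used to select them, and these are the subject here.

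The tissue came from male mice at postnatal day 45 on a C57BL/6J background, digested to single cells and then treated with a red cell lysis buffer for 3 minutes. Each group was a pool of aortas run as 1 droplet library, so the 3 libraries are WT, mgR and mgR-LOS. Mice of the mgR group were homozygous for the hypomorphic fibrillin-1 allele mgR (Fbn1mgR/mgR), a model of Marfan syndrome that carries the allele in every cell. The mgR-LOS mice had the same genotype and drank losartan, an angiotensin II type 1 receptor blocker, at 0.6 g/L from postnatal day 16, and the labels do not say whether the mgR mice of this assay drank vehicle. With 1 library in each group no difference between groups has a replicate check, and the bracketed 95% ranges below cover counting error only.

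Red cells form in the marrow from nucleated precursors that fill with haemoglobin and then expel the nucleus. The resulting reticulocyte has no nucleus to make RNA, but keeps ribosomes and a shrinking store of mRNA, which a mature red cell has lost. Haemoglobin joins alpha chains and beta chains around heme, and *Alas2* encodes the enzyme that starts heme synthesis in erythroid cells. In a vessel, red cells come with the blood, and protocols for aortic cells lyse them before capture.

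The alpha genes lie on chromosome 11 at 32283511 to 32284465 (*Hba-a1*, plus strand) and 32296489 to 32297298 (*Hba-a2*, plus strand), and the beta genes on chromosome 7 at 103826534 to 103828096 (*Hbb-bs*, minus strand) and 103812524 to 103813996 (*Hbb-bt*, minus strand), all on GRCm38. The 120 bases before each RefSeq transcription start (GRCm38.p6) are shown in the direction of transcription, together with those of *Alas2*, because these 5 genes defined and marked the barcodes. The gene spans above are from another annotation, with other starts. The *Hba-a1* and *Hbb-bs* windows therefore lie inside those spans, and the *Hba-a2* and *Hbb-bt* windows overlap theirs. Capitals mark the letters CCAAT and CACCC, and those of ATATAA, on either strand, and no marked match shares a letter with another.
Hba-a1, chr11:32283552-32283671, plus strand: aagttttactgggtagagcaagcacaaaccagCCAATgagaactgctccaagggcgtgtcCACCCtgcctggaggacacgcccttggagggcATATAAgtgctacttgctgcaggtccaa
Hba-a2, chr11:32296372-32296491, plus strand: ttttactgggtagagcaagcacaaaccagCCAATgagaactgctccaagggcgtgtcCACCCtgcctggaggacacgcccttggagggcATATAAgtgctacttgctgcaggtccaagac
Hbb-bs, chr7:103827929-103828048, minus strand: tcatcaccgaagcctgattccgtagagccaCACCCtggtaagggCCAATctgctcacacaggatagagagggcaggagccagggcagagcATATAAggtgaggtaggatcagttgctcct
Hbb-bt, chr7:103813924-103814043, minus strand: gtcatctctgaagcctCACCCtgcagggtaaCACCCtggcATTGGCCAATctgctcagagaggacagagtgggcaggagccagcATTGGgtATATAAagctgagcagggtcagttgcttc
Alas2, chrX:150547297-150547416, plus strand: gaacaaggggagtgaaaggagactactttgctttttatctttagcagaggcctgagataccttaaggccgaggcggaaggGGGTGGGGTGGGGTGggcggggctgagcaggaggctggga
Each of the 4 globin windows held all 3 motifs, and *Hbb-bt* held CCAAT 3 times and CACCC 2 times. The *Alas2* window held CACCC 3 times, each on the other strand as GGGTG, without CCAAT or ATATAA in these 120 bases. GATAAG, searched on both strands, was found in none of the 5 windows. Of 32851 RefSeq windows of the same length, 21.3% held CCAAT, 31.7% CACCC, 4.47% ATATAA and 3.01% GATAAG. A match is a description of the letters, not of a bound site.

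The paired globin genes are near copies, which limits what their separate UMIs can say. Over 429 coding bases (GENCODE vM21), *Hba-a1* and *Hba-a2* differed at 1 position, C381T counted from the A of the start codon, and the 74 bases compared after the stop codon were identical. Over 444 coding bases, *Hbb-bs* and *Hbb-bt* differed at 1 position, C417T, while 46 of the 131 bases after the stop codon matched at the same position and 99 of 131 once the tails were aligned. The coding bases around each difference are shown with that base in capitals.
Hba-a1, coding bases 351 to 411: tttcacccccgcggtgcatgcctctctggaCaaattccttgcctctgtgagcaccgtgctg
Hba-a2, coding bases 351 to 411: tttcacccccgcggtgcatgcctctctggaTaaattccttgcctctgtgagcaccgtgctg
Hbb-bs, coding bases 387 to 444: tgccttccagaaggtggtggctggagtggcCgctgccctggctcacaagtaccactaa
Hbb-bt, coding bases 387 to 444: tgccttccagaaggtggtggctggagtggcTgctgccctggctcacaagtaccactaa
A read from the 3′ end can thus be told apart for the beta pair, while the split between *Hba-a1* and *Hba-a2* is uncertain, and the alpha pair is mostly given as a sum below.

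The WT, mgR and mgR-LOS libraries contained 66, 71 and 44 of the globin-rich barcodes. These were 0.840% (0.650 to 1.07), 0.666% (0.521 to 0.840) and 0.300% (0.218 to 0.403) of 7858, 10657 and 14663 barcodes, with whole-library depths of 83338726, 123956320 and 121436873 UMIs. The mgR-LOS share lay below the counting ranges of both other libraries, while the WT and mgR ranges overlapped. How many red cells outlasted the lysis step in each pool was not measured, so the genotype, losartan and the preparation of a single pool cannot be told apart.

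Globin UMIs were concentrated in these few barcodes. They held 99.7% of all globin UMIs in the WT library, 97.9% in mgR and 94.6% in mgR-LOS. At the minimum, the lowest selected barcode had 141, 223 and 158 globin UMIs in WT, mgR and mgR-LOS, and the highest barcode not selected had 17, 87 and 97. Between 10 and 99 globin UMIs were found in 2, 102 and 68 barcodes outside the selection. At least 1 globin UMI was present in 8.14%, 14.4% and 16.9% of the unselected barcodes. No selected barcode sequence occurred in another library, although 22 barcodes were shared by WT and mgR, 29 by WT and mgR-LOS and 46 by mgR and mgR-LOS.

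The globin-rich barcodes fell into a large group dominated by globin and a small group in which globin was the minor part. Globin made up at least 50% of the UMIs in 61 of 66 WT, 64 of 71 mgR and 33 of 44 mgR-LOS barcodes, 158 in all, and 126 of the 181 had 80% or more. The 158 are called globin-dominated here. The other 23, of which 5 were in WT, 7 in mgR and 11 in mgR-LOS, had a median of 11476, 10500 and 9210 non-globin UMIs, near the 11640, 11120.5 and 7875 of all unselected barcodes.

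**Figure D1:**
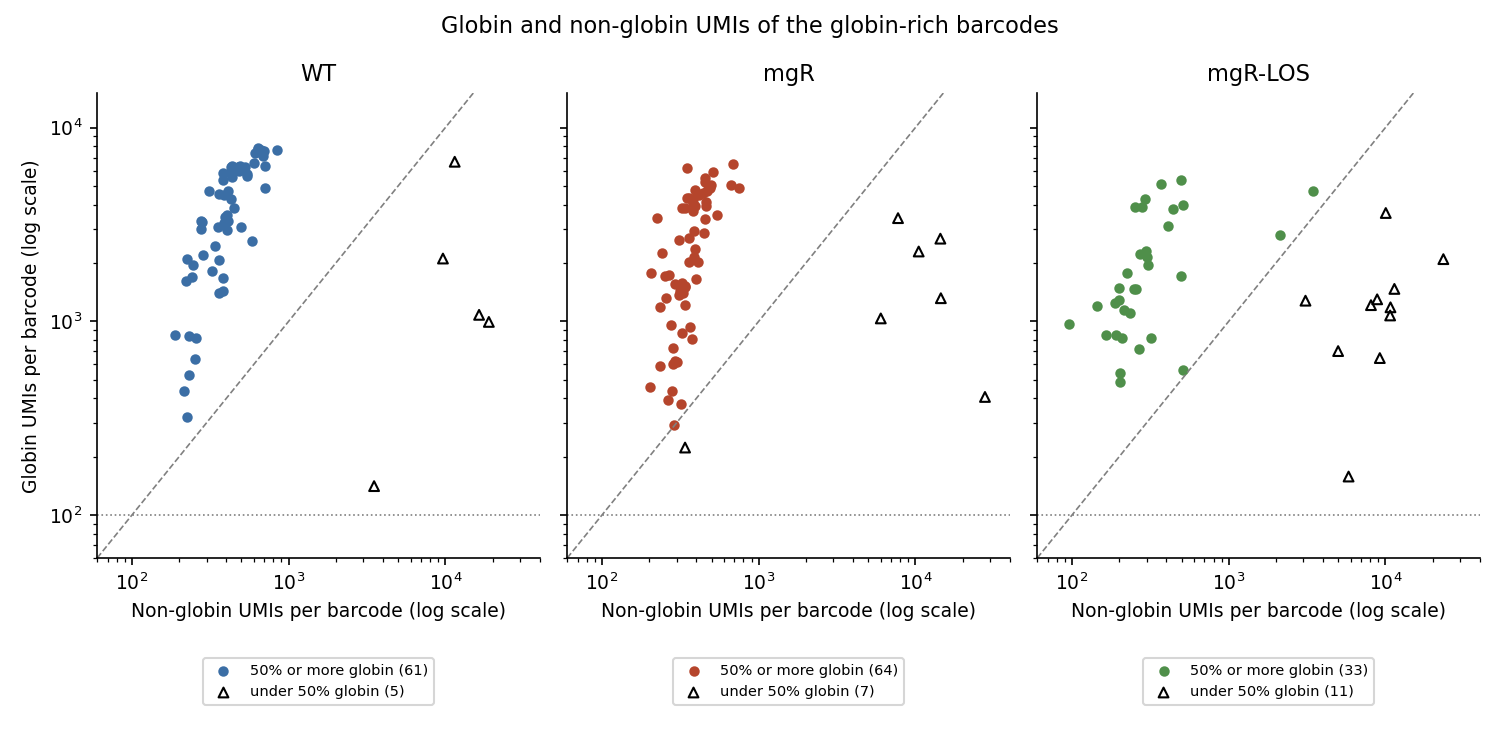
Globin UMIs against non-globin UMIs of each globin-rich barcode, both on log axes, by library, with filled circles for at least 50% globin, triangles for less, a dashed line at equal UMIs and a dotted line at the minimum of 100. Apart from 2 mgR-LOS barcodes, the filled circles sit between 96 and 838 non-globin UMIs, and the 23 triangles lie to the right of them, apart from 1 mgR barcode with 339 non-globin UMIs.

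Outside globin, the globin-dominated barcodes held little RNA. Their non-globin UMIs ranged from 187 to 838 with a median of 407 in WT, from 203 to 744 with a median of 354 in mgR, and from 96 to 3441 with a median of 269 in mgR-LOS. The median number of detected genes was 181, 205.5 and 168, against 3150.5, 3112 and 2520 in the other barcodes of the same libraries. The mgR-LOS range reached so high because of 2 barcodes with 3441 and 2135 non-globin UMIs and 1359 and 892 genes, so mgR-LOS values without them are also given where leaving them out changed a value or the order of the libraries most. Under the study's limits of 600 to 5000 genes and at most 10% mitochondrial UMIs, 22 of the 181 globin-rich barcodes passed, of which 20 were among the 23 with less than 50% globin and 2 were these mgR-LOS barcodes.

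Erythroid transcripts marked the non-globin remainder of the globin-dominated barcodes. A list of 45 measured erythroid genes, which contains no globin, took up 6.82% (6.51 to 7.13) of their non-globin UMIs in WT, 4.94% (4.67 to 5.23) in mgR and 4.19% (3.87 to 4.53) in mgR-LOS. In all other barcodes of each library the same list took up 0.0962%, 0.0999% and 0.103%, so the ratios were 70.9, 49.5 and 40.8. Without its 2 barcodes of at least 600 genes, the mgR-LOS share was 6.12% (5.63 to 6.65). Per barcode, the list had a median of 21, 15 and 13 UMIs, and it was at 0 in 2 WT, 2 mgR and 0 mgR-LOS barcodes.

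*Alas2*, the erythroid enzyme of the initial and rate-limiting step of heme synthesis, was the gene that separated these barcodes most plainly. It was counted 288 times in WT, 197 times in mgR and 110 times in mgR-LOS globin-dominated barcodes, against 3, 4 and 7 times in all other barcodes of the libraries. Relative to non-globin UMIs this was 11179 (9925 to 12547), 8322 (7201 to 9569) and 7651 (6288 to 9222) CPM (UMIs scaled to a total of 1000000 non-globin UMIs). Without its 2 deeper barcodes, mgR-LOS was at 10908 (8835 to 13320) CPM, above mgR instead of below it. At least 1 *Alas2* UMI was present in 54 of 61, 57 of 64 and 25 of 33 barcodes, at a median of 4, 2 and 3 UMIs. Of the other barcodes 0.0385%, 0.0378% and 0.0479% held 1, although their median non-globin depth of 11640, 11120.5 and 7875 UMIs was far above the 407, 354 and 269 of the globin-dominated barcodes. The selection did not use *Alas2*, so this erythroid marker bears out the label of red cells for the globin-dominated barcodes.

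The libraries differed in depth, so detection was also compared at equal depth. After each globin-dominated barcode was thinned to 200 non-globin UMIs, which left out 1 WT, 0 mgR and 6 mgR-LOS barcodes, *Alas2* was present in 75.0% (62.1 to 85.3), 79.7% (67.8 to 88.7) and 70.4% (49.8 to 86.2). The 3 ranges overlapped. Each value is from 1 random draw, and another draw from the same WT and mgR barcodes gave 71.7% and 73.4% for *Alas2*. The whole erythroid list had a median of 9.5, 8 and 10 UMIs per 200.

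The other steps of heme supply were present at lower counts. *Fech*, the ferrochelatase that inserts iron into heme, had 43, 35 and 23 UMIs in WT, mgR and mgR-LOS, at 68.4, 53.1 and 60.2 times the CPM of the other barcodes. *Slc25a37*, the mitoferrin that carries iron into mitochondria, had 47, 33 and 17 UMIs, at 235, 119 and 138 times, or 225 times in mgR-LOS without its 2 deeper barcodes. *Slc25a39*, a mitochondrial carrier of the same family, had 48, 35 and 17 UMIs, at 38.1, 30.4 and 21.2 times. In the other barcodes, all 3 genes had far more UMIs than *Alas2*. *Ftl1*, the ferritin light chain that stores iron, was among the 10 most abundant non-globin genes in each library, with 395, 233 and 138 UMIs at 24.2, 7.80 and 9.42 times. The ferritin heavy chain *Fth1* lay close to the other barcodes, at 1.51, 1.21 and 1.37 times. *Hmox1*, which degrades heme, had 0 UMIs in all 3 libraries, where a count of 0 allows up to 116, 127 and 209 CPM, and its CPM in the other barcodes was 15.7, 41.2 and 27.7.

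Genes of oxygen release and carbon dioxide transport followed. *Bpgm*, which makes the 2,3-bisphosphoglycerate that lowers the oxygen affinity of haemoglobin, had 312, 178 and 60 UMIs and 12110, 7520 and 4173 CPM, against 12.4, 12.7 and 9.13 CPM in the other barcodes. It was seen in 77.0%, 62.5% and 57.6% of the globin-dominated barcodes and in 10.8%, 10.5% and 6.35% of the others. *Car2*, a carbonic anhydrase, was more unevenly spread, since its 37, 30 and 23 UMIs came from 8, 12 and 6 barcodes. All the other barcodes together had 26, 71 and 19 *Car2* UMIs.

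Membrane protein genes of the red cell were rare, with few or no UMIs in the other barcodes. *Slc4a1*, the band 3 anion exchanger, had 9, 4 and 3 UMIs against 0 in all other barcodes of every library, at least 9664-fold higher in WT when 3 counts over the other barcodes are taken as the floor. *Epb42*, which encodes protein 4.2 of the membrane skeleton, had 0, 2 and 1 UMIs against 1, 0 and 2. *Hbq1a*, a theta globin gene of the alpha cluster that was not part of the selection, had 8, 8 and 1 UMIs against 0, 1 and 0.

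Genes of protein and organelle turnover were also measured. *Mkrn1*, a ubiquitin ligase, had 290, 179 and 88 UMIs and 11257, 7562 and 6121 CPM, which were 424, 233 and 200 times the level in the other barcodes, and mgR-LOS was at 8522 CPM without its 2 deeper barcodes. The ubiquitin-conjugating enzyme gene *Ube2l6* had 90, 60 and 17 UMIs, and *Ube2o*, whose product tags ribosomal proteins for removal in reticulocytes, had 28, 17 and 10. *Bnip3l*, needed for the clearance of mitochondria from reticulocytes, had 97, 71 and 36 UMIs at 34.0, 27.3 and 20.5 times the level of the others. *Tfrc*, the transferrin receptor that reticulocytes shed, had 0, 1 and 0 UMIs. The 8 genes of the reticulocyte maturation list took up 0.485%, 0.384% and 0.334% of non-globin UMIs, against 0.0191%, 0.0207% and 0.0213% elsewhere. Without its 2 deeper barcodes mgR-LOS was at 0.511% (0.373 to 0.684), the highest of the 3 instead of the lowest, with a range that held the WT and mgR values.

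Enzymes that act on RNA were also on the erythroid list. *Tent5c*, a poly(A) polymerase gene, had 87, 67 and 32 UMIs at 208, 141 and 109 times the level of the others. *Isg20*, an exonuclease gene, had 80, 50 and 38 UMIs at 621, 124 and 269 times, or 416 times in mgR-LOS without its 2 deeper barcodes. *Epb41*, which encodes the membrane skeleton protein 4.1 and was on no list, had 59, 44 and 18 UMIs, at 90.6, 56.6 and 37.3 times. Another gene outside the lists was *Rec114*, known for its part in meiotic recombination, with 19, 12 and 3 UMIs against 14, 30 and 28 in all other barcodes.

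Genes against oxidative damage, a constant load in cells that carry oxygen, came next. *Gpx1*, a glutathione peroxidase gene, had 187, 108 and 67 UMIs at 10.9, 6.32 and 6.89 times the level of the other barcodes. *Prdx2*, the abundant peroxiredoxin of red cells, had 57, 27 and 27 UMIs at 10.7, 5.64 and 9.62 times. *Blvrb*, a biliverdin reductase, had 32, 8 and 10 UMIs at 16.1, 4.28 and 8.76 times. Not every gene of the antioxidant list was higher, since *Txn1*, encoding thioredoxin, had 10, 2 and 8 UMIs at 0.785, 0.172 and 1.28 times, and in mgR it was at least 2-fold lower. The 6 antioxidant genes together made up 1.06%, 0.655% and 0.786% of non-globin UMIs, against 0.190%, 0.195% and 0.187% in the others, and mgR-LOS was at 1.09% (0.884 to 1.33) without its 2 deeper barcodes.

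Several genes of earlier erythroid stages were at or near the limit of detection. The transcription factor genes *Klf1*, *Gata1* and *Tal1* had 0 UMIs in the globin-dominated barcodes of all 3 libraries, where 0 allows up to 116, 127 and 209 CPM. *Hemgn*, a nuclear protein of erythroid precursors, had 1, 1 and 0 UMIs. The 6 cell cycle genes on the list together had 1, 0 and 0 UMIs. Outside that list, the mitotic spindle gene *Nusap1* had 12, 1 and 2 UMIs, the WT ones in 8 barcodes at 317 times the others. *Ube2c*, a ubiquitin-conjugating enzyme gene of mitotic exit, had 18, 16 and 2 UMIs, at 165 times the others in WT and 63.7 times in mgR.

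**Figure D2:**
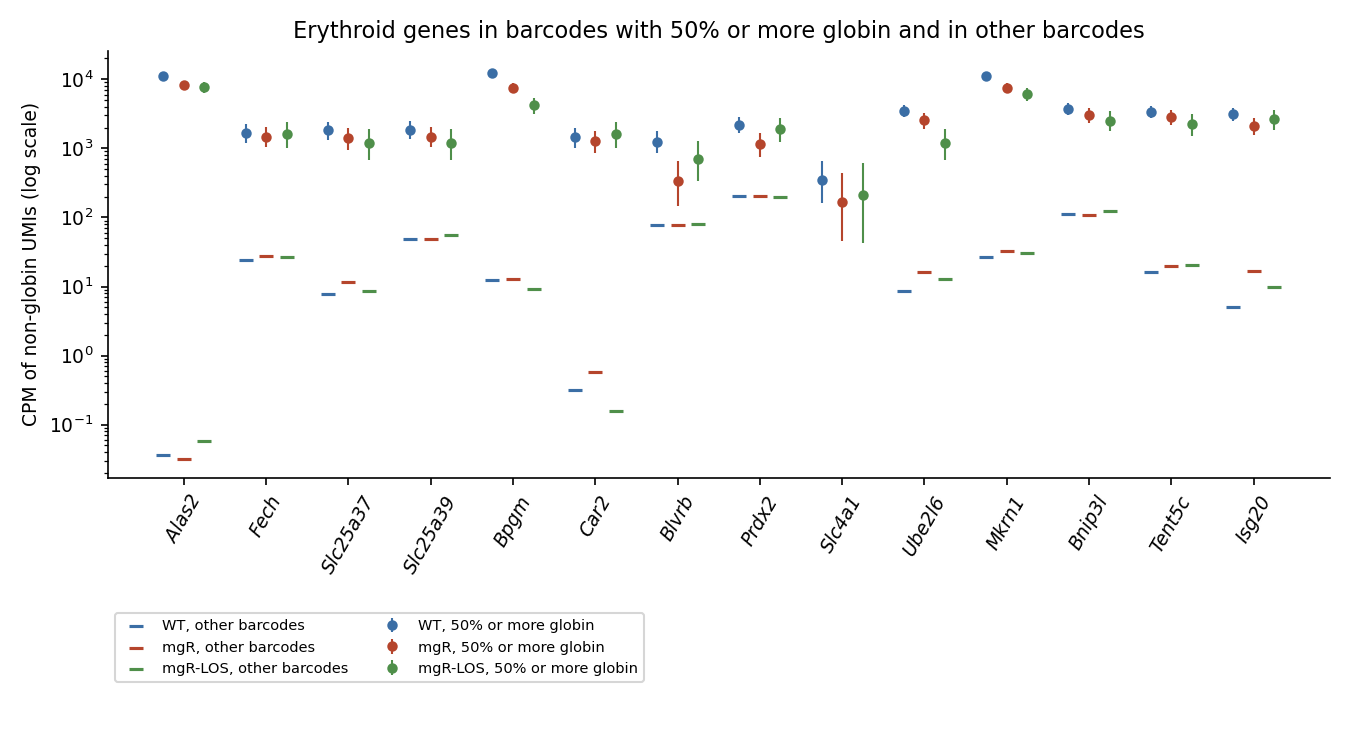
Level of named erythroid genes in CPM of non-globin UMIs on a log axis, as circles with 95% Poisson ranges in globin-dominated barcodes and as dashes in all other barcodes of each library, with no dash where the others had 0 UMIs. *Alas2* and *Car2* lie farthest above the other barcodes among genes with a dash, whereas *Prdx2* and *Blvrb* lie closer to them.

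Across all genes, the contrast with the rest of the library was wide, which sets the background for the erythroid counts. Called genes were those at least 2-fold apart, among genes with at least 10 UMIs in the globin-dominated barcodes for higher calls, or at least 10 UMIs expected there from the level of the other barcodes for lower calls. Higher calls were 92 of 296 genes in WT (31.1%), 75 of 308 in mgR (24.4%) and 58 of 218 in mgR-LOS (26.6%). Lower calls were 169 of 352 (48.0%), 96 of 323 (29.7%) and 30 of 200 (15%). Of the erythroid list, 15 of 16, 14 of 14 and 14 of 14 measured genes were called higher. No member of the list would have reached 10 UMIs at the level of the other barcodes, so these genes entered through the very barcodes where they are high, and the counts carry no weight beyond the shares above.

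Between libraries, the erythroid levels of the globin-dominated barcodes with under 600 genes were compared gene by gene, with 61, 64 and 31 barcodes. In mgR against WT, 6 of 18 erythroid genes with at least 10 UMIs over both libraries were lower with a counting range below 1, namely *Alas2* (ratio 0.744, 0.618 to 0.895), *Bpgm* (0.621, 0.514 to 0.749), *Mkrn1* (0.672, 0.554 to 0.812), *Isg20*, *Blvrb* and *Prdx2*. No erythroid gene had a range above 1, and their median ratio was 0.754. Of all 510 genes with that many UMIs, 6.86% had a range below 1 and 9.41% above, with a median ratio of 1.11. Abundant genes outside the list lay below 1 as well, among them *Ubb* (0.608), *Ftl1* (0.642), *Gpx1* (0.629) and *Gm42418* (0.709), while *Mgp* (4.34), *Tmsb4x* (1.55), *Acta2* (1.41) and *Malat1* (1.37) lay above. In mgR-LOS against mgR, 5 of 16 had a range above 1, namely *Alas2* (1.31, 1.02 to 1.68), *Isg20* (1.94, 1.23 to 3.03), *Car2* (2.06, 1.14 to 3.67), *Prdx2* (2.29, 1.25 to 4.15) and *Blvrb* (3.03, 1.04 to 9.01), and none below. Over all 386 genes these shares were 6.74% above and 4.40% below, and *Gpx1* (1.47), *Tpt1* (1.46), *Ftl1* (1.28) and *Malat1* (1.56) were also above 1, while *Mgp* (0.353) and *Tmsb4x* (0.655) were below. In mgR-LOS against WT, *Car2* lay above 1, 3 of 18 genes lay below, among them *Bpgm* (0.507, 0.372 to 0.678) and *Mkrn1* (0.757, 0.579 to 0.979), and the median was 1.03, beside 8.87% above and 5.65% below of 372 genes. Against the other barcodes of its own library, mgR-LOS without its 2 deeper barcodes also ranked differently for *Fech* (81.3 times), *Slc25a39* (34.6), *Bnip3l* (31.6), *Tent5c* (156), *Prdx2* (13.4) and *Malat1* (0.183) than the values above with them. The ratios between libraries share libraries, UMIs of 1 barcode are not independent, and with 1 pool a group they describe the libraries.

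The most abundant non-globin transcripts came from a noncoding locus. *Gm42418*, a noncoding gene on chromosome 17 at 39846958 to 39848788 (plus strand), had 6939, 4522 and 1972 UMIs and was the most abundant non-globin gene in each library. Its level of 269340, 191035 and 137164 CPM was 9.40, 11.0 and 4.58 times that of the other barcodes. In mgR-LOS without its 2 deeper barcodes it was 191569 CPM or 6.40 times. *AY036118*, which overlaps it on the minus strand at 39847113 to 39848035, had 762, 434 and 168 UMIs at 15.7, 19.3 and 13.2 times, or 20.3 times in mgR-LOS without those barcodes. The strand setting of the counting is not given in the sources used here beyond the kit, so these overlapping genes are uncertain as separate entries. *Ubb* (ubiquitin), *Tpt1* and *Oaz1*, all abundant in many cells, were among the 10 leading genes in WT.

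*Malat1* was low. *Gm42418* stood on the same list of noncoding and nuclear transcripts, but whether its UMIs come from nuclear RNA was not tested. *Malat1*, a noncoding RNA that stays in the nucleus, had a median of 1, 1 and 2 UMIs per globin-dominated barcode. Its level was 0.174 (0.138 to 0.216), 0.193 (0.157 to 0.234) and 0.129 (0.10 to 0.164) times that of the other barcodes. In the 23 barcodes with less than 50% globin, its median was 252, 52 and 280 UMIs.

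Mitochondrial transcripts took up 3.04%, 1.99% and 4.91% of non-globin UMIs in the globin-dominated barcodes, against 7.06%, 5.42% and 5.12% in the others. Of the measured mitochondrial genes, 10 of 12 in WT, 12 of 12 in mgR and 0 of 9 in mgR-LOS were at least 2-fold lower, beside 48.0%, 29.7% and 15% of all measured genes, and the median log2 ratios of −1.42, −1.57 and −0.16 stood beside −0.95, −0.49 and −0.11 over all measured genes. Without the 2 barcodes of at least 600 genes, the mgR-LOS share was 3.62%, and 1 of 9 genes was at least 2-fold lower, beside 20.7% of all genes. Ribosomal protein genes kept a share near that of the others, 10.5%, 12% and 15.9% against 12.8%, 13.1% and 13.6%, and the mgR-LOS value was 12.5% without those 2 barcodes. Of the ribosomal protein genes, 6 of 79, 3 of 80 and 0 of 77 were at least 2-fold lower, below the 48.0%, 29.7% and 15% over all genes, and in mgR-LOS 9 of 67 without those barcodes. *Rpl41* was at least 2-fold higher in all 3 libraries, although not in mgR-LOS without them.

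Transcripts of the vessel wall were also present in the globin-dominated barcodes, at lower shares than in the others. The 6 smooth muscle cell markers took up 1.63%, 2.15% and 1.95% of non-globin UMIs, against 3.86%, 2.47% and 3.27% in the other barcodes, with a median of 6, 8 and 6 UMIs and no barcode at 0. *Acta2*, smooth muscle actin, had 5822, 8238 and 7790 CPM against 15907, 9997 and 13071, and *Myh11*, the smooth muscle myosin heavy chain, was at 0.173, 0.235 and 0.273 times the others. *Mgp*, the secreted matrix Gla protein, had 4735, 20574 and 7860 CPM in the globin-dominated barcodes and 8929, 21338 and 10763 CPM in the others. *Mgp* was thus highest in mgR in both kinds of barcode, and 4.34-fold (3.56 to 5.34) higher in mgR than in WT among the globin-dominated ones. Free RNA and a red cell joined to a vascular cell were not tested as sources of these UMIs.

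Markers of other cell types were also counted, and their sources were not tested. The 6 fibroblast markers took up 0.198%, 0.393% and 0.925% of non-globin UMIs, against 1.00%, 1.33% and 1.20%, and the mgR-LOS share was 0.330% without its 2 deeper barcodes, 1 of which alone held 92 fibroblast UMIs. *Col3a1*, a fibrillar collagen gene, was at 0.232, 0.338 and 0.762 times the others, or 0.277 times in mgR-LOS without its 2 deeper barcodes. Immune markers took up 0.0272%, 0.144% and 0.0835%, against 0.0625%, 0.393% and 0.174%, and mgR-LOS was at 0.136% (0.0705 to 0.238) without its 2 deeper barcodes. Neutrophil and T cell markers had 0 UMIs in all 3 libraries, endothelial markers 2, 1 and 1, and platelet markers 3, 1 and 0. B cell markers had 0, 17 and 0 UMIs, of which 10 were *Igkc*, an immunoglobulin light chain gene.

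**Figure D3:**
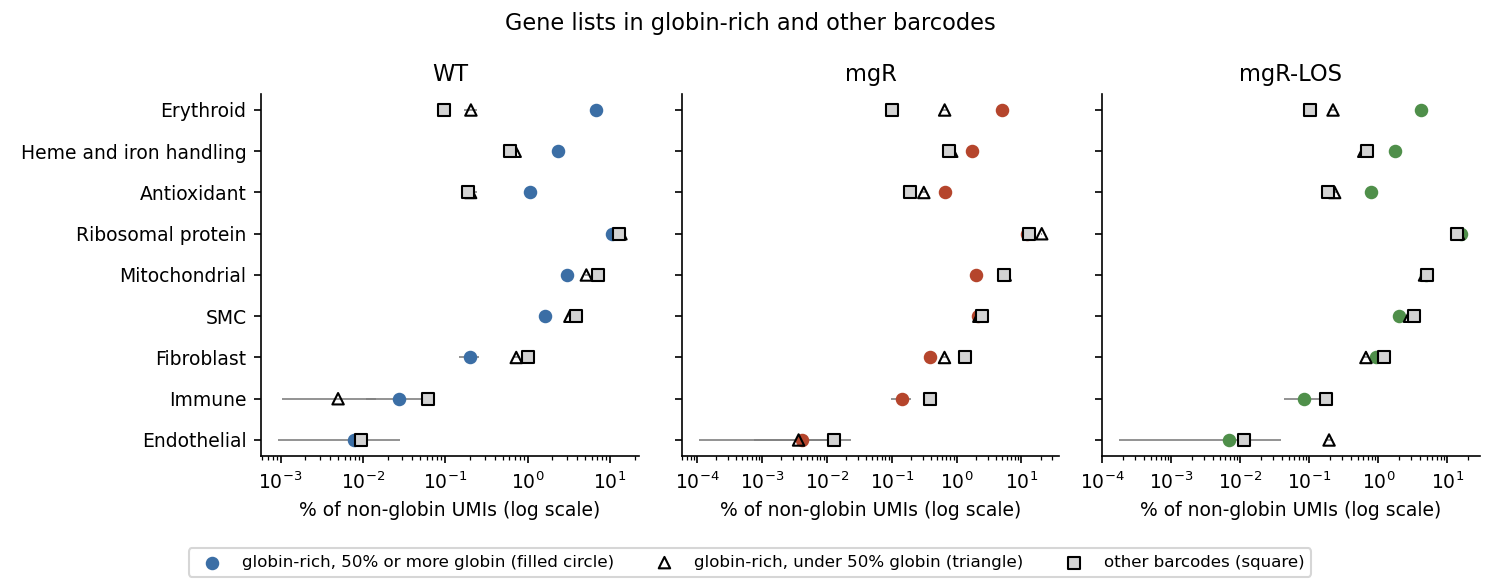
Share of non-globin UMIs taken by each gene list, in percent on a log axis with 95% ranges, in globin-dominated barcodes (circles), globin-rich barcodes with less than 50% globin (triangles) and all other barcodes (squares) of each library. In circles, the erythroid list lies about 41 to 71 times above the other barcodes, whereas smooth muscle and fibroblast markers lie below them in every library.

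The globin-dominated barcodes also differed among themselves. *Hbb-bs* made up 84.6%, 85.9% and 83.7% of beta globin UMIs summed over them, but single barcodes spread from 74.6% to 99.8% in WT, 75.3% to 99.3% in mgR and 75.9% to 99.6% in mgR-LOS. A gap was present near 90% in WT, where no barcode lay between 87.9% and 91.7%, and in mgR-LOS between 89.5% and 94.4%, while in mgR the neighbours were 89.5% and 90.7%. Over 90% were 25, 27 and 7 barcodes, and this limit was chosen after the values were seen.

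Barcodes with a high *Hbb-bs* share had lower median globin UMIs and a lower erythroid share. Their median was 2201, 1507 and 821 globin UMIs, compared with 5969, 3951 and 2055 in barcodes up to 90%. *Hbb-bt* had a median of 53, 31 and 27 UMIs in the former and 733.5, 473 and 239 in the latter. Erythroid genes took up 2.58% (2.25 to 2.95), 1.81% (1.54 to 2.12) and 2.25% (1.55 to 3.15) of non-globin UMIs above 90%, and 8.76% (8.34 to 9.18), 6.70% (6.30 to 7.11) and 4.41% (4.06 to 4.78) up to 90%. In mgR-LOS the latter was 6.90% without the 2 deeper barcodes. *Alas2* alone took up 0.716% (0.544 to 0.925) of non-globin UMIs above 90% in WT and 1.30% (1.14 to 1.48) up to 90%. In mgR these were 0.482% (0.346 to 0.654) and 1.03% (0.874 to 1.20). In mgR-LOS they were 0.819% (0.424 to 1.43) and 0.759% (0.617 to 0.924), with overlapping ranges. Without the 2 deeper barcodes the latter was 1.15% (0.914 to 1.42), and the ranges still overlapped. These UMIs come from a single pool a library and the sets were made from globin values, so the ranges are a description and no test. Across barcodes, Spearman's rho between the *Hbb-bs* share and the erythroid share was −0.795, −0.749 and −0.325 (61, 64 and 33 barcodes), and between globin UMIs and erythroid UMIs it was 0.914, 0.865 and 0.776. Points of 1 library share their preparation and differ in depth, so these values are descriptions.

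**Figure D4:**
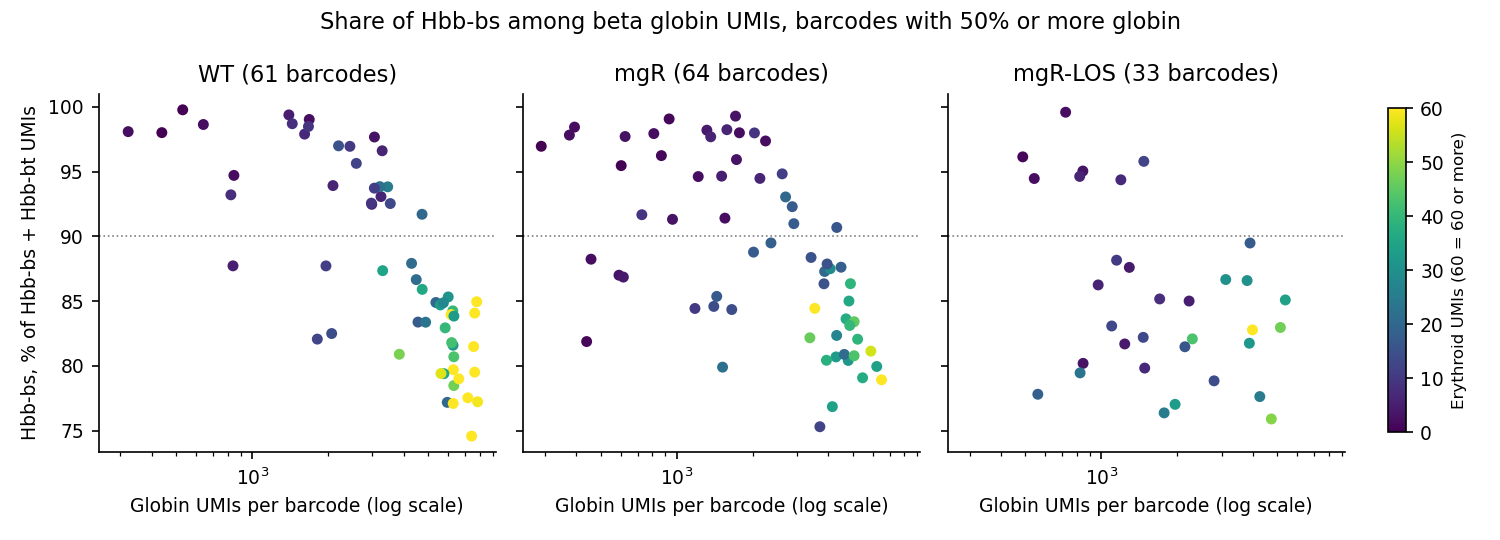
*Hbb-bs* share of beta globin UMIs in percent against globin UMIs on a log axis, 1 point for each globin-dominated barcode, coloured by its erythroid UMIs (60 or more in the lightest colour), with a dotted line at 90%. Barcodes above the line, 25, 27 and 7 in WT, mgR and mgR-LOS, are darker and lie mostly to the left of those below it.

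The balance of alpha and beta globin differed between mgR-LOS and the other libraries. Alpha globin made up 28.0% (27.8 to 28.2), 27.8% (27.6 to 28.0) and 37.3% (36.9 to 37.6) of globin UMIs in all globin-rich barcodes. The median over barcodes was 27.7%, 28.0% and 37.6%, and the values reached from 20.7% to 35.6% in WT, 17.7% to 54.8% in mgR and 28.6% to 58.7% in mgR-LOS, so that the libraries overlapped barcode by barcode. In barcodes with 80% or more globin the values reached from 21.7% to 35.6%, 19.6% to 34.7% and 33.2% to 45.6%. There mgR-LOS overlapped the others at the edge only. The globin UMIs of the unselected barcodes had alpha shares near those summed over all globin-rich barcodes, 28.0%, 27.7% and 35.4%. Header records name one release of the counting software for WT and mgR (5.0.1) and another for mgR-LOS (6.0.1), and the part of the release in the alpha share was not tested and cannot be told apart from losartan. Within alpha, *Hba-a1* made up 57.5%, 55.4% and 57.7%, with the uncertainty of the near-identical copies.

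**Figure D5:**
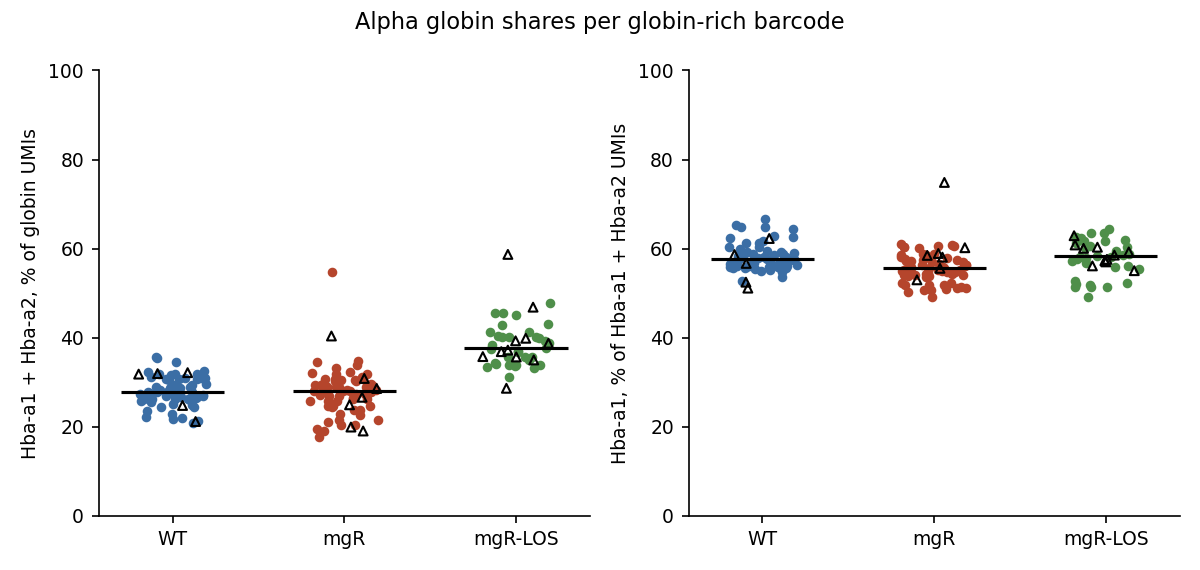
Alpha globin share of globin UMIs (left) and *Hba-a1* share of alpha globin UMIs (right) in percent for each globin-rich barcode, with triangles for less than 50% globin and lines at the medians. On the left the mgR-LOS barcodes centre on 37.6% and those of WT and mgR on 27.7% and 28.0%, and on the right 1 mgR barcode lies at 74.9%.

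The 23 barcodes with less than 50% globin held, beside globin, many transcripts of vascular and other cell types. Their erythroid share was 0.205%, 0.656% and 0.220%, and the mgR value was 0.263% without the 1 barcode that held 358 of its 534 erythroid UMIs. Among the non-erythroid marker lists, smooth muscle cell markers led in 14, fibroblast markers in 5, immune markers in 2, and T cell and endothelial markers in 1 each. In 2 of the 5 mgR barcodes led by smooth muscle cell markers, these had only 8 and 9 UMIs and erythroid genes had more. A WT barcode had 1080 globin UMIs beside 989 smooth muscle marker UMIs and 3675 genes. In mgR, a barcode with 2293 globin UMIs had 316 immune marker UMIs and 256 UMIs of *Cd74*, the class II invariant chain, and another had 6106 UMIs of *Mgp* among 27806 non-globin UMIs. In mgR-LOS, a barcode with 2094 globin UMIs and 5051 genes had 204 endothelial marker UMIs, including 119 of the tight junction gene *Cldn5*. Whether a droplet held a red cell together with another cell was not tested.

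Across genes, the non-globin profiles were correlated with the rest of their library. Pearson's r of log2 CPM with the unselected barcodes was 0.912, 0.822 and 0.886 over 950, 1081 and 1764 genes for the 23, and 0.244, 0.372 and 0.429 over 296, 308 and 218 genes for the globin-dominated barcodes. The genes were those with at least 10 UMIs in each set, so the gene sets differ, and erythroid genes entered the latter only through the barcodes where they are high. The part of either in the difference was not tested. Between libraries, the globin-dominated profiles correlated at 0.847 or 0.842 (WT with mgR), 0.760 or 0.776 (WT with mgR-LOS) and 0.789 or 0.837 (mgR with mgR-LOS), over the genes of the former or the latter library of each pair. Genes are not independent replicates, and the pairs of profiles differ in depth. Markers of 3 cell types in 1 barcode, each at 2 UMIs or more after thinning to 500 non-globin UMIs, were found in 0 of 19, 2 of 11 and 0 of 15 globin-rich barcodes with that depth, and in 0.321%, 2.65% and 0.759% of the others. At 200 UMIs and 1 UMI or more of each they were found in 0 of 65, 8 of 71 and 3 of 38, and at 1000 UMIs and 3 or more in 0 of 6 in mgR, so these few counts depend on the depth chosen.

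A single mgR barcode stood apart by its erythroid genes and was singled out after its values were seen. It had 1316 globin UMIs, which was 8.30% of its 15855 UMIs, and 2887 genes. Of its non-globin UMIs, 358 or 2.46% (2.22 to 2.73) belonged to the erythroid list, and 36 of the 45 genes were present. Its leading erythroid genes were *Car2* with 76 UMIs, *Blvrb* with 49, *Prdx2* with 47, *Car1* with 24 and *Hemgn* with 21, whereas the unselected mgR barcodes together had 1 *Car1* UMI and 0 *Hemgn* UMIs.

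The heme genes of this barcode differed from those of the globin-dominated barcodes. *Cpox*, of a late step of heme synthesis, had 10 UMIs and was at 0 in all 64 globin-dominated mgR barcodes, while *Alas2* had 3 UMIs and *Bpgm* 0. The erythroid transcription factor genes *Klf1*, *Gata1* and *Tal1* had 4, 2 and 3 UMIs. All 6 cell cycle genes were present with 64 UMIs in sum, among them *Top2a* with 21 and *Mki67* with 15, and smooth muscle cell markers had 9 UMIs. *Hba-a1* made up 74.9% (70.0 to 79.3) of its alpha globin UMIs and *Hbb-bs* 68.9% of its beta globin UMIs, respectively the highest and lowest of the globin-rich barcodes. The values of the 64 globin-dominated mgR barcodes do not include it.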

How the data were processed

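Three-prime droplet libraries (Chromium v3.1) of pooled, digested aortas, treated with a red cell lysis buffer, were processed by the authors with Cell Ranger against mm10 (GRCm38). The submitters' processing notes name release 6.0.1 for all libraries, while the file headers name 5.0.1 for WT and mgR and 6.0.1 for mgR-LOS. The authors deposited whole UMI counts for each gene and barcode, which were used without scaling. Barcodes with at least 100 UMIs over the 4 adult globin genes were selected from all barcodes, and no doublet caller was run and no barcode removed. Levels are UMIs scaled to 1000000 non-globin UMIs (CPM), summed over barcodes and set against all other barcodes of the same library.

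With 1 library in each group no test between groups was possible. Ranges are exact 95% Poisson, Clopper-Pearson or conditional binomial intervals and cover counting error only, and a floor of 3 counts was used where the other barcodes were at 0. The calling of 2-fold differences was tested on simulated data. The selection of barcodes and the gene lists were chosen with earlier results of these data known. Genes were named by rule: the globin genes, every list gene, in each library the 10 non-globin genes with most UMIs and the 15 with the largest ratio to the other barcodes among genes with at least 10 UMIs, and the 10 genes with the highest share of their library's UMIs in the selected barcodes. The erythroid gene Ahsp was matched to no row. Some genes that meet the rule are not reported here. Overlapping genes and near-identical copies are uncertain where named.

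Alternatives were globin minimums of 50, 200 and 500 UMIs, the study's gene and mitochondrial limits, barcodes with at least 50% globin, removal of mitochondrial and ribosomal protein genes, and other thinning depths. Python 3.11.15, numpy 2.4.6, scipy 1.17.1, pandas 2.3.3 and matplotlib 3.10.9 were used.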

Additional observations from a re-analysis of the deposited data

How the results depend on the processing

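No paired analysis was possible because each group was 1 library. Values are in the order WT, mgR and mgR-LOS. Under the study's gene and mitochondrial limits, 5, 5 and 12 globin-rich barcodes were left, with globin at 15.47%, 9.531% and 18.55% of their UMIs and erythroid genes at 0.205%, 0.6521% and 0.2811% of non-globin UMIs. Of these 22 barcodes, 20 had less than 50% globin. With at least 50% globin UMIs, the globin share was 90.75%, 88.08% and 82.98% and the erythroid share 6.816%, 4.943% and 4.187%. With under 600 genes as well, a setting chosen after seeing the data, they were 90.75%, 88.08% and 87.67%, and 6.816%, 4.943% and 6.124%. A globin minimum of 50 gave globin shares of 58.48% in mgR and 36.4% in mgR-LOS, and erythroid shares of 1.311% and 0.5839%. A minimum of 200 gave globin shares of 76.22% in WT and 42.4% in mgR-LOS. A minimum of 500 gave 76.26%, 70.84% and 42.31%, and an erythroid share of 2.189% in mgR. Without mitochondrial and ribosomal protein genes the erythroid share was 2.645%, 2.118% and 0.8572%. Another 23 of these comparisons were not counted as moved, where barcode counts were judged by a fold limit and not by the counting range. Of the remaining 105, 55 moved. The lowest and highest values over these settings and the reported one are given within WT, mgR and mgR-LOS. They were 27.68% to 29.52%, 24.77% to 27.98% and 36.1% to 37.56% for the alpha globin share. Smooth muscle markers had 1.634% to 3.349%, 2.041% to 2.863% and 1.955% to 3.463%. Fibroblast markers had 0.198% to 0.7282%, 0.3929% to 0.7755% and 0.6902% to 0.9251%. Immune markers had 0.004999% to 0.02717%, 0.1436% to 0.4645% and 0.08347% to 0.2077%. The median of non-globin UMIs per barcode was 419, 360 and 303 over all globin-rich barcodes. It moved only under the study's limits, to 11480, 14440 and 8474. The correlation with the rest of the library ran from 0.2444 to 0.8326, 0.372 to 0.8074 and 0.4288 to 0.8789, and the share of barcodes with markers of 3 cell types was 0% in WT and ran from 0% to 18.18% in mgR and 0% to 7.895% in mgR-LOS. Depth limits single genes, since many erythroid genes had under 10 UMIs in a library.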
